A study of Mus musculus with 18 samples.

Results

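The genes described here are 10 genes of alternative activation and scavenging in macrophages: Mrc1, Chil3, Retnla, Cd163, Msr1, Marco, Clec10a, Mgl2, Cd36 and Stab1. They were taken by name from the 55413 genes that the GENCODE vM21 annotation (mm10) holds on chromosomes 1 to 19, X and Y, of which 21938 are protein-coding, and every peak was listed that touched the gene body, the 5 kb before it or the 1 kb after it; this stretch is called the window. The study profiled trimethylation (H3K27me3) and acetylation (H3K27ac) of lysine 27 of histone H3 by ChIP-seq in untreated bone marrow-derived macrophages (BMDM), cells grown from mouse marrow for a week in medium conditioned by L929 fibroblasts, a source of M-CSF. There were 3 genotypes, all male by the study's methods: WT (strain C57BL6 by the labels); mdx (Dmdmdx-4Cv), which carry a point mutation in the dystrophin gene; and mdxTLR4-/- (Bl6/Bl10), which carry the mdx mutation and lack the Toll-like receptor TLR4 in every cell. Of the 18 samples, each genotype gave 2 H3K27me3 ChIP libraries with 2 inputs, while H3K27ac was profiled in 2 libraries of WT, 2 of mdx and 1 of mdxTLR4-/- with a single input. Ages given for the H3K27me3 ChIP samples were 12 to 13 weeks (WT), 14 to 15 weeks (mdx) and 16 to 17 weeks (mdxTLR4-/-), and those for H3K27ac 19 to 20, 21 to 22 and 23 weeks, and the input samples were put at 6 to 11 weeks for H3K27me3 and 18 weeks for H3K27ac. The ages as given step up by 1 week from each sample to the next through the whole series. Whether they are true ages is therefore not known. As labelled, age, strain and genotype cannot be told apart. The study's methods put its WT, mdx and TLR4-/- stocks on C57BL/6J and name no background for the mdxTLR4-/- mice, which the labels call Bl6/Bl10.

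Macrophages exposed to interleukin-4 or interleukin-13 adopt a state called alternative or M2 activation, in which the transcription factor STAT6 binds and switches on a set of genes that in the mouse includes Mrc1, Chil3 and Retnla. Scavenger receptors and C-type lectin receptors are surface proteins by which macrophages take up modified lipoproteins, glycoproteins, haemoglobin complexes, microbes and dying cells, and several of them serve as markers of M2 cells. H3K27me3, laid down by the Polycomb repressive complex PRC2, is found over silent genes, whereas H3K27ac at the same residue marks active promoters and enhancers, and a lysine cannot carry both. Genes that need a stimulus may carry neither mark before it.

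The data were 6 lists of peaks, 1 per mark and genotype, with the number of ChIP reads in every peak; 5 were made from 2 merged libraries each, and the H3K27ac list of mdxTLR4-/- BMDM from 1. No spread between mice could therefore be had and no p-value is given; intervals are exact 95% intervals on the read counts and cover counting error only, since reads carried no molecular identifiers. The H3K27me3 lists held 28143 to 41780 peaks with 7358418 to 10199918 reads, and the H3K27ac lists 12076 to 15665 peaks with 168487 to 274020 reads, with no H3K27ac peak under 5 reads. A gene without a peak is 1 at which no enriched stretch was called, which is not the same as no modified histone. Of 8 macrophage markers, 8 had an H3K27ac peak within 1 kb of the gene start in WT, 7 in mdx BMDM and 8 in mdxTLR4-/-, and none had H3K27me3 in its window, whereas the T cell, B cell, neutrophil, fibroblast and muscle lists (4 genes each) had no H3K27ac peak at a gene start in any list. Elsewhere in the window, the fibroblast genes Col1a1 (41, 7 and 30 reads in WT, mdx and mdxTLR4-/-) and Col1a2 (23, 13 and 22) had H3K27ac. So did 1 T cell gene in each list, and 2, 1 and 1 B cell genes in the same order. The neutrophil and muscle genes had no H3K27ac peak. Tlr4 itself carried an H3K27ac peak over its start in all 3 lists. All H3K27ac peaks listed at Tlr4 together held 52 reads in WT (2 peaks), 29 in mdx (1 peak) and 43 in mdxTLR4-/- BMDM (4 peaks). These lists do not show whether the deleted part of the gene is present.

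Most of the 10 genes lay outside H3K27me3 in all genotypes, and 6 of them carried H3K27ac. H3K27me3 was listed in the window of 1 of 10 in WT BMDM (38.4% of all protein-coding genes), 3 in mdx BMDM (41.3%) and 3 in mdxTLR4-/- (39.0%). The 7 genes without it in any list were Mrc1, Chil3, Retnla, Cd163, Msr1, Cd36 and Stab1, against 55.5% of protein-coding genes. H3K27ac was listed at 6 of 10 genes in WT (39.9% of protein-coding genes), 4 in mdx BMDM (34.5%) and 6 in mdxTLR4-/- (36.5%), a count that window length affects, since the windows ran from 7.91 kb (Retnla) to 113 kb (Cd36). Within 1 kb of the gene start the share was close to the background: 3 of 10 in WT (27.9%), 3 in mdx BMDM (23.8%) and 2 in mdxTLR4-/- (25.7%). In all, 33 H3K27ac peaks with 5 to 108 reads and 13 H3K27me3 peaks with 31 to 146 reads were found; 19 of the 33 H3K27ac peaks held fewer than 10 reads.

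**Figure D1:**
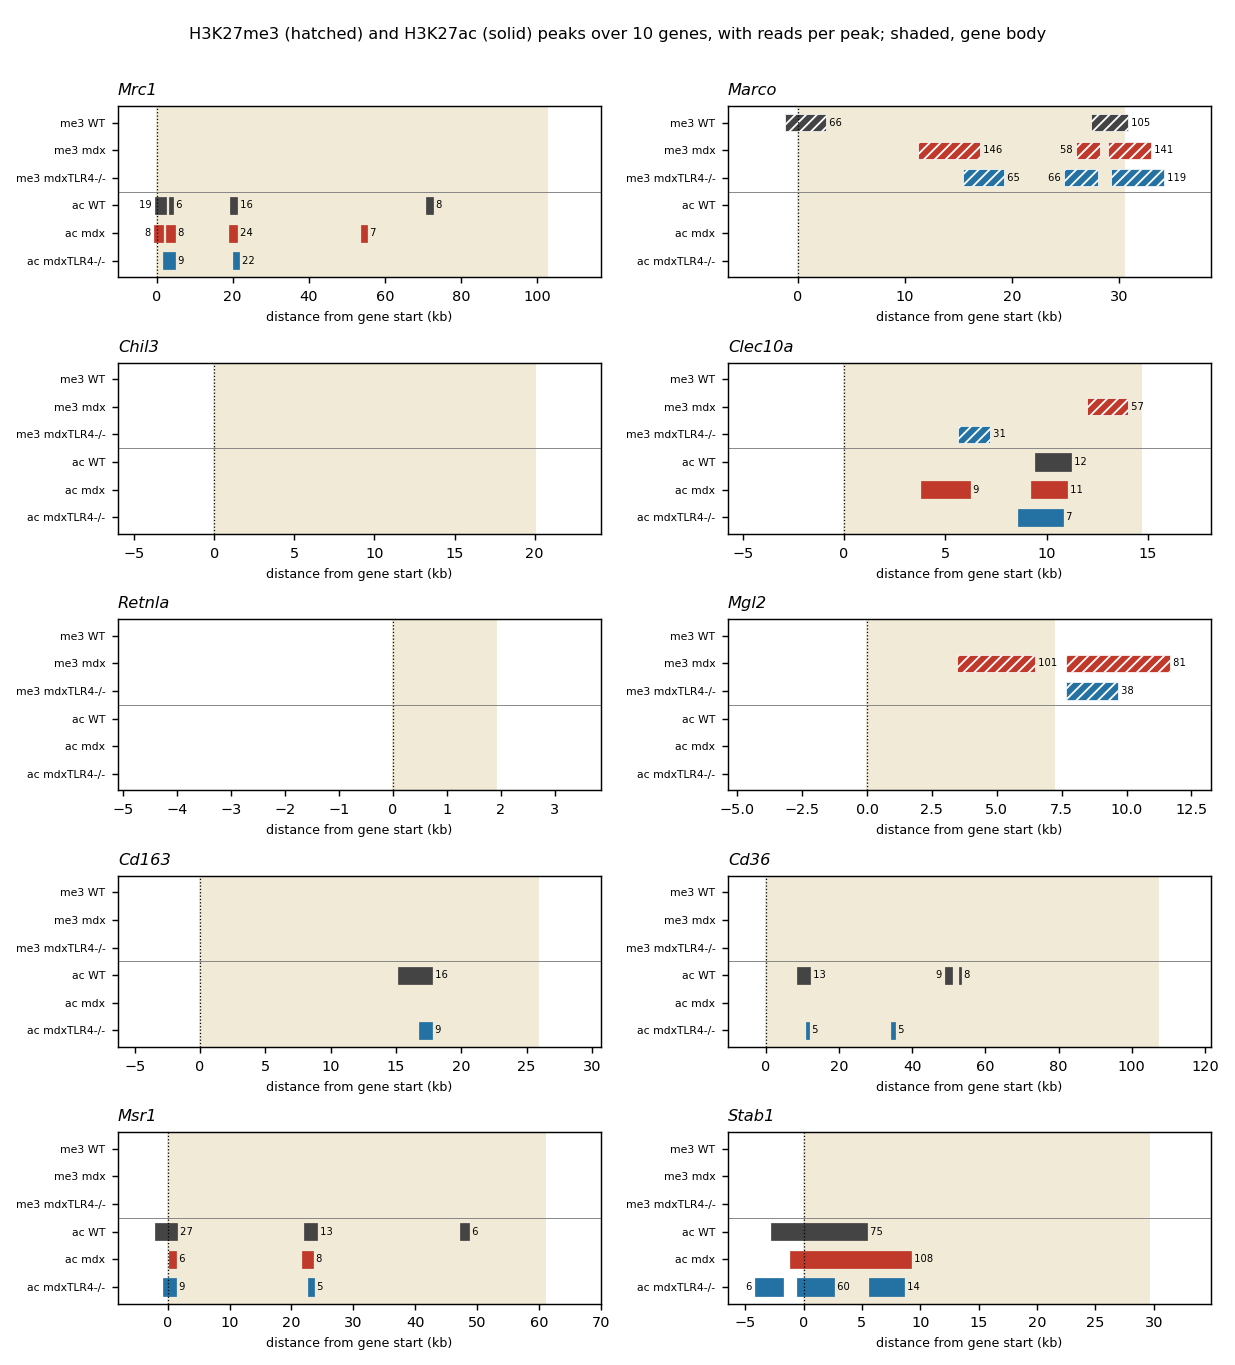
Peaks over the 10 genes, drawn along each gene from its start (kb, in the direction of transcription), with 1 row per list: H3K27me3 hatched, H3K27ac solid, WT dark grey, mdx red, mdxTLR4-/- blue, gene body shaded, and ChIP reads printed beside each peak. Chil3 and Retnla are empty, Marco and Mgl2 hold H3K27me3 alone, and Clec10a is the gene where both marks appear in a list.

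**Figure D2:**
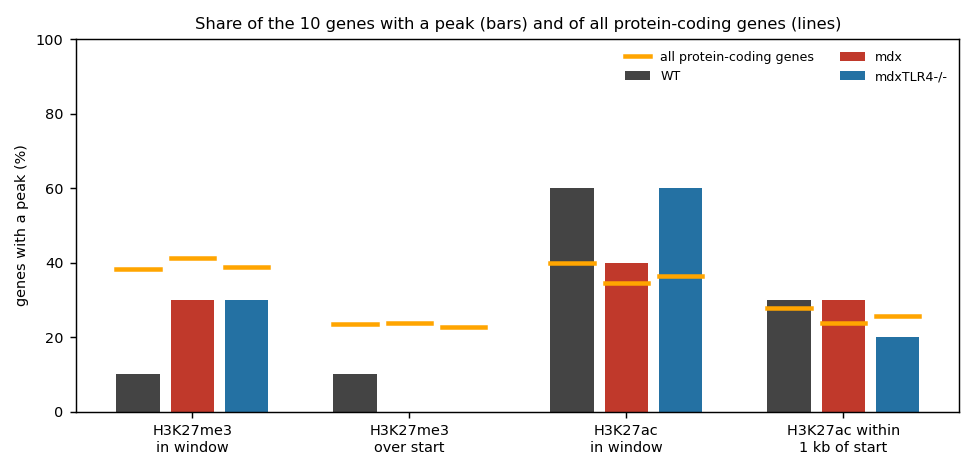
Share of the 10 genes with a peak (bars, % of genes, 1 bar per genotype) and of all protein-coding genes (orange lines). H3K27me3 bars lie below the lines, for the whole window (10 to 30%) and over the gene start (10% in WT, 0 in mdx and mdxTLR4-/-). The H3K27ac bars for the whole window (40 to 60%) lie above the lines, and those within 1 kb of the gene start (20 to 30%) close to them.

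Mrc1 encodes the mannose receptor CD206, a C-type lectin that takes up mannosylated glycoproteins and is the marker most used for M2 macrophages. It lies on the plus strand at chr2:14229392-14332057 (ENSMUSG00000026712.3; 30 exons) and had 4 H3K27ac peaks in WT, 4 in mdx BMDM and 2 in mdxTLR4-/-. The sequence just before its first exon is shown because the peaks at the gene start lie over it; it is the RefSeq sequence (GRCm38.p6, chr2:14229164-14229391, plus strand), and capitals mark 3 matches to the core of the PU.1 motif, GAGGAA, here on the reverse strand as TTCCTC, 13 to 158 bp before the exon. PU.1 is the factor that sets the macrophage lineage.
Mrc1 upstream: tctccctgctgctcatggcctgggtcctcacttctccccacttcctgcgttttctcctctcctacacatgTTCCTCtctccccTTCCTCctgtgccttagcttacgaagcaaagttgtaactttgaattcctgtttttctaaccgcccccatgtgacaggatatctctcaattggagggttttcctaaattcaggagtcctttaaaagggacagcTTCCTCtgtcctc
On either strand this core occurred in 23.3% of 32851 RefSeq upstream sequences of 250 bases, so that a match alone is common.

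At the start of Mrc1, WT BMDM had a peak at chr2:14229001-14231800 with 19 reads (6.79 reads per kb, interval 4.09 to 10.6) and a smaller one in intron 1 with 6 reads. The corresponding mdx peaks held 8 reads each, at 3.64 and 3.33 reads per kb. In mdxTLR4-/- BMDM a single peak of 9 reads (2.81 reads per kb) began 1609 bp inside the gene, and the start itself was not covered. Reads over this region thus numbered 25, 16 and 9, and the mdx to WT ratio of densities, without scaling, was 0.557 (0.278 to 1.08), an interval that includes 1. For mdxTLR4-/- against WT the unscaled ratio was 0.450 (0.185 to 0.997); divided by the median ratio of all genes it was 0.519 (0.213 to 1.15), so that no difference was resolved at this depth.

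At the second Mrc1 site the values were ordered the other way. Starting 19.0 kb into the gene, at exon 4 and intron 4, the lists held 16 reads in WT (chr2:14248601-14250400; 8.89 reads per kb, 5.08 to 14.4), 24 in mdx BMDM (12.0 reads per kb, 7.69 to 17.9) and 22 in mdxTLR4-/- (15.7 reads per kb, 9.85 to 23.8). The mdxTLR4-/- peak was denser than 93.5% of all peaks of its list. Relative to the all-gene median, the density was 1.52 times that of WT in mdx (0.774 to 3.06). In mdxTLR4-/- it was 2.04 times that of WT (1.02 to 4.15), an interval lying just above 1. Without scaling, the mdxTLR4-/- to WT ratio was 1.77 with a lower limit of 0.887, so that this interval included 1. Whether a difference was resolved at this site thus depended on the scaling. The middle 300 bases of this intronic site (GRCm38.p6, chr2:14249851-14250150, plus strand) are shown because it is the densest H3K27ac site away from a gene start, at any of the 10 genes, among those listed in every genotype; capitals mark a TATAAA match and, on the reverse strand, a match to the C/EBP motif TTGCNNAA.
Mrc1 intronic region: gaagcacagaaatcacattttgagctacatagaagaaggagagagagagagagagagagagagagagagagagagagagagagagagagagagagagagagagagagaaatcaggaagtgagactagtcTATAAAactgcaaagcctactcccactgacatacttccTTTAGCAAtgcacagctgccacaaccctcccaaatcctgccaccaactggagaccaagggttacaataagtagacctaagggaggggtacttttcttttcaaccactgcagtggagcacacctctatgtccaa
A run of 70 bases of alternating G and A lies near its 5′ end. Runs of at least 40 such bases were found in the middle 300 bases of 27 of 6456 H3K27ac regions shared by the 3 lists (0.418%). Whether this repeat affects how reads were placed there was not tested. TATAAA was present in 9.79% and the C/EBP motif in 11.4% of these 300-base stretches. One further intronic peak was seen in WT alone (intron 15, 8 reads) and 1 in mdx alone (intron 11, 7 reads).

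Clec10a and Mgl2 encode the paired mouse macrophage galactose-type lectins, which bind terminal galactose and N-acetylgalactosamine and are used as M2 markers. They are neighbours on the plus strand of chromosome 11: Mgl2 at chr11:70130329-70137550 (ENSMUSG00000040950.13; 10 exons) and Clec10a at chr11:70156197-70170834 (ENSMUSG00000000318.16; 10 exons). These were the only genes of the 10 at which H3K27me3 was listed in some genotypes and not in others, in each case in mdx and mdxTLR4-/- and not in WT; the presence of the mark differed among the 3 lists at 2 of 10 genes and at 9.76% of protein-coding genes. Such a gain in mdx against WT was seen in 4.82% of protein-coding genes, and a gain in mdxTLR4-/- against WT in 3.53%; as the genes are neighbours, they are not separate observations.

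At Mgl2, mdx BMDM had an H3K27me3 peak over exons 2 to 9 (chr11:70133801-70136800) with 101 reads (33.7 reads per kb, 27.4 to 40.9), denser than 72.4% of peaks of that list. A weaker mdx peak of 81 reads (20.3 reads per kb), denser than 4.98% of peaks of that list, lay just past the gene end, at chr11:70138001-70142000. In mdxTLR4-/- BMDM only the site past the gene end was listed, with 38 reads (chr11:70138001-70140000; 19.0 reads per kb, 13.5 to 26.1), 0.451 kb from the gene body and touching the last 550 bp of the window. The nearest WT peak was 29.3 kb upstream, at Asgr2. H3K27me3 therefore covered 26.9% of the Mgl2 window in mdx BMDM and 4.16% in mdxTLR4-/-, and the gene body was marked in mdx alone. No H3K27ac peak was listed at Mgl2 in any genotype.

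Clec10a carried H3K27me3 at different places in the 2 dystrophic genotypes. The mdx peak covered exons 2 to 8 (chr11:70168201-70170200; 57 reads, 28.5 reads per kb, 21.6 to 36.9). The mdxTLR4-/- peak lay in the part of the gene that 1 of its 7 protein-coding transcripts spans (chr11:70161801-70163400; 31 reads, 19.4 reads per kb, 13.2 to 27.5). Neither site overlapped the other, and the nearest WT peak, with 49 reads, was 5.17 kb past the gene. The mdxTLR4-/- peaks at both genes were thin for their list, denser than 19.6% (Mgl2) and 22.0% (Clec10a) of its peaks. The mdx peak past the end of Mgl2 was thin for its own list too (4.98%). When peaks were required to have at least 1.5 times the density of the list's 1st percentile, or each list was reduced to the same number of peaks, Marco was the 1 gene of the 10 left with H3K27me3 in mdxTLR4-/- BMDM.

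H3K27ac at Clec10a sat over an internal promoter in all 3 lists. The peak, 8.60 to 11.2 kb into the gene, covered 4 of its 7 protein-coding transcript starts, with 12 reads in WT (6.67 reads per kb, 3.45 to 11.7), 11 in mdx BMDM (6.11, 3.05 to 10.9) and 7 in mdxTLR4-/- (3.18, 1.28 to 6.56). The annotated gene start, used by 1 transcript, was not covered. A second peak of 9 reads was listed in mdx alone. Clec10a was thus the 1 gene of the 10 with both marks in its window, in mdx (9.20% of protein-coding genes had both) and in mdxTLR4-/- BMDM (8.92%); the marks did not overlap, and were 1001 bp apart in mdx and 1401 bp apart in mdxTLR4-/- BMDM. Over the 6 lists, 106 protein-coding genes (0.483%) shared the presence pattern of Clec10a and 256 (1.17%) that of Mgl2.

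Stab1 encodes stabilin-1, a large endocytic receptor of macrophages and sinusoidal endothelium that clears modified lipoproteins and matrix fragments. It is on the minus strand at chr14:31139013-31168641 (ENSMUSG00000042286.13; 69 exons) and had the broadest and most deeply read H3K27ac of the 10 genes. The sequence upstream of its first exon (RefSeq, GRCm38.p6, chr14:31168642-31168891, minus strand) lay under a peak in every list; capitals mark 1 match to the PU.1 core, 30 bp before the exon.
Stab1 upstream: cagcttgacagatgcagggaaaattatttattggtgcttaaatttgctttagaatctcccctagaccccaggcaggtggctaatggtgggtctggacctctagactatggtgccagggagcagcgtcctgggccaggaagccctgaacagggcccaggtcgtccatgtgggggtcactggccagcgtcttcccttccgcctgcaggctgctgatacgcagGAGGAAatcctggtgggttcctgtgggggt
WT BMDM had 1 peak over the start and exons 1 to 3, at chr14:31163201-31171400, with 75 reads (9.15 reads per kb, 7.19 to 11.5); its upstream end reached the neighbouring gene Nisch. In mdx BMDM 1 peak ran over exons 1 to 16, with 108 reads (10.4 reads per kb, 8.52 to 12.5). In mdxTLR4-/- BMDM the same stretch was split into 3 peaks, the middle one of which covered the start with 60 reads in 3200 bp (18.8 reads per kb, 14.3 to 24.1), denser than 96.4% of peaks in its list, with 14 and 6 reads in the flanking ones.

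Over the whole Stab1 window the comparison of genotypes depended on the scaling. Total reads were 75, 108 and 80, densities 9.15, 10.4 and 9.30 reads per kb, and the covered share of the window 23.0%, 29.2% and 24.1%. Relative to the all-gene median the density ratio was 1.28 for mdx against WT (0.943 to 1.74), 0.924 for mdxTLR4-/- against mdx (0.683 to 1.25) and 1.17 for mdxTLR4-/- against WT (0.845 to 1.63), and each interval included 1. Scaled to the total reads in peaks of each list in place of the median gene, the ratios to WT were 1.62 for mdx (1.20 to 2.21) and 1.65 for mdxTLR4-/- (1.19 to 2.3), intervals above 1, and that of mdxTLR4-/- to mdx was 1.02 (0.753 to 1.37). For the single peak with the largest overlap, mdxTLR4-/- against WT was 2.37, with the domain divided differently between the lists.

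Msr1 encodes scavenger receptor A (CD204), which binds modified low-density lipoprotein and other polyanions. The gene is on the minus strand at chr8:39581685-39642673 (ENSMUSG00000025044.16; 10 exons). Its start carried 27 H3K27ac reads in WT (chr8:39641201-39644800; 7.50 reads per kb, 4.94 to 10.9), 6 in mdx BMDM (6.00 reads per kb, 2.2 to 13.1) and 9 in mdxTLR4-/- (4.50 reads per kb, 2.06 to 8.54). The WT peak was the longest and extended 2.13 kb upstream, whereas the mdx peak began 273 bp inside the gene. A second site at exon 5 was listed in all 3 genotypes, with 13, 8 and 5 reads, and another, in intron 8, in WT alone with 6 reads. WT had more reads at every site, and at the start the interval on the count (17.8 to 39.3) lay above those of mdx (2.2 to 13.1) and mdxTLR4-/- BMDM (4.12 to 17.1). Per kb the intervals overlapped. The density ratios per window relative to the all-gene median were 0.856 for mdx (0.435 to 1.59) and 0.819 for mdxTLR4-/- against WT (0.416 to 1.52), and both intervals include 1. The WT list held 274020 H3K27ac reads in peaks, against 191629 in mdx and 168487 in mdxTLR4-/-. Whether this difference bears on the Msr1 counts was not tested.

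Marco, the collagenous macrophage receptor that binds bacteria and particles, was the 1 gene of the 10 with H3K27me3 in all genotypes, as 34.8% of protein-coding genes were. It lies on the minus strand at chr1:120474538-120505024 (ENSMUSG00000026390.7; 17 exons). The mark was at different parts of the gene. In WT BMDM a peak with 66 reads (chr1:120502401-120506200; 17.4 reads per kb, 13.4 to 22.1) covered the gene start and exon 1, and another with 105 reads (30.9 reads per kb, 25.3 to 37.4) covered exons 15 to 17. No peak lay over the start in mdx or mdxTLR4-/- BMDM; a peak over the gene start was listed for 23.5%, 23.8% and 22.7% of protein-coding genes in WT, mdx and mdxTLR4-/- BMDM.
Marco upstream: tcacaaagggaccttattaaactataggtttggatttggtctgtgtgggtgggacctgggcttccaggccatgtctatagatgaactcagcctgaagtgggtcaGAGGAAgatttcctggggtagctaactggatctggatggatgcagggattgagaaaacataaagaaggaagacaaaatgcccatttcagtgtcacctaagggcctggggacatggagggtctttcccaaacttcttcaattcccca
This RefSeq sequence (GRCm38.p6, chr1:120505025-120505274, minus strand) is the one under the WT peak, with 1 PU.1 core match in capitals 146 bp before the exon. The WT peak there was sparse, denser than 5.26% of its list. Unscaled, its density lay below the 1st percentile of the mdx list (18.0 reads per kb) but above that of the mdxTLR4-/- list (14.1). These densities are not on 1 scale, since the median ratio to WT over all genes was 1.21 for mdx and 0.972 for mdxTLR4-/-. Whether such a peak could have been called in those lists was not tested.

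In the body of Marco the dystrophic genotypes had a site that WT lacked. In mdx it covered exons 4 to 8 (chr1:120488001-120493800; 146 reads, 25.2 reads per kb, 21.3 to 29.6) and in mdxTLR4-/- BMDM exons 7 to 9 (chr1:120485801-120489600; 65 reads, 17.1 reads per kb, 13.2 to 21.8). At the 3′ end all genotypes were marked, with 105 reads in WT, 199 in mdx BMDM and 185 in mdxTLR4-/- over 1 or 2 peaks, at 30.9, 32.1 and 22.6 reads per kb. Relative to the all-gene median, this site was at 0.752 in mdxTLR4-/- against WT (0.588 to 0.964), an interval below 1, at 0.863 in mdx against WT (0.678 to 1.10) and at 0.872 in mdxTLR4-/- against mdx (0.710 to 1.07). The mark covered 19.7% of the window in WT, 28.7% in mdx BMDM and 25.4% in mdxTLR4-/-. Over all Marco peaks the WT density was 23.8 reads per kb (20.3 to 27.6), that of mdx 28.8 (25.8 to 32.0) and that of mdxTLR4-/- 20.8 (18.3 to 23.6). The unscaled mdx to WT ratio was 1.21 (1.01 to 1.46), but the median ratio over 14595 genes with peaks in both lists was 1.21 too, and relative to it the ratio was 1.00 (0.834 to 1.21). For mdxTLR4-/-, over all peaks of the gene, it was 0.899 against mdx (0.761 to 1.06) and 0.902 against WT (0.740 to 1.10). No H3K27ac peak was listed at Marco, the nearest being 25577 bp (WT), 26977 bp (mdx) and 207338 bp (mdxTLR4-/-) away.

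Cd36 and Cd163 were the genes at which H3K27ac was present in WT and mdxTLR4-/- BMDM and absent in mdx, 2 of 10 genes with a difference among the lists against 21.4% of protein-coding genes. A loss in mdx against WT was found for 9.94% of protein-coding genes and a gain in mdxTLR4-/- against mdx for 8.19%; both together, without H3K27me3, were found for 650 protein-coding genes (2.96%). Cd36 encodes a fatty acid translocase and scavenger receptor for oxidised lipoproteins, and is induced by PPARγ. It is on the minus strand at chr5:17781690-17888801 (ENSMUSG00000002944.15; 16 exons). WT BMDM had peaks of 13, 9 and 8 reads in its window; the last, chr5:17835601-17836000, was 400 bp long (20.0 reads per kb, 8.64 to 39.4) and covered 2 of 6 protein-coding starts, 53.1 kb into the gene. In mdxTLR4-/- BMDM there were 2 peaks of 5 reads each, of which the one 11.0 kb into the gene lay within the WT site of 13 reads. The nearest mdx peak was 110 kb upstream, at Gnat3. The sequence before this internal first exon (RefSeq, GRCm38.p6, chr5:17835897-17836146, minus strand), partly under the WT peak, held no match to any of the motifs searched, so that all of it is in lower case.
Cd36 upstream: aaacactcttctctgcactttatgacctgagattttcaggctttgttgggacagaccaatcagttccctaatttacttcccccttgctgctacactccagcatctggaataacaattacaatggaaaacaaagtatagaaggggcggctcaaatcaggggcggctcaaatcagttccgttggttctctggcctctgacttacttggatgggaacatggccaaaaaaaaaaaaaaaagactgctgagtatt

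Cd163, the receptor for haptoglobin-haemoglobin complexes, lies on the plus strand at chr6:124304656-124330527 (ENSMUSG00000008845.9; 17 exons). Its H3K27ac peak was in the body at exon 11 and intron 11, with 16 reads in WT (chr6:124319801-124322400; 6.15 reads per kb, 3.52 to 9.99) and 9 in mdxTLR4-/- BMDM (chr6:124321401-124322400; 9.00 reads per kb, 4.12 to 17.1). In mdx no peak was listed in the window, although 1 of 8 reads lay 2.47 kb past the gene end, outside it. The gene start was not covered in any list. A peak of 5 reads has an exact Poisson interval of 1.62 to 11.7 and one of 9 reads an interval of 4.12 to 17.1, so that counting error alone spans the 5 reads of the smallest peak in any list. With peaks of at least 10 reads, Cd163 and Cd36 were marked in WT and in neither of the others.

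**Figure D3:**
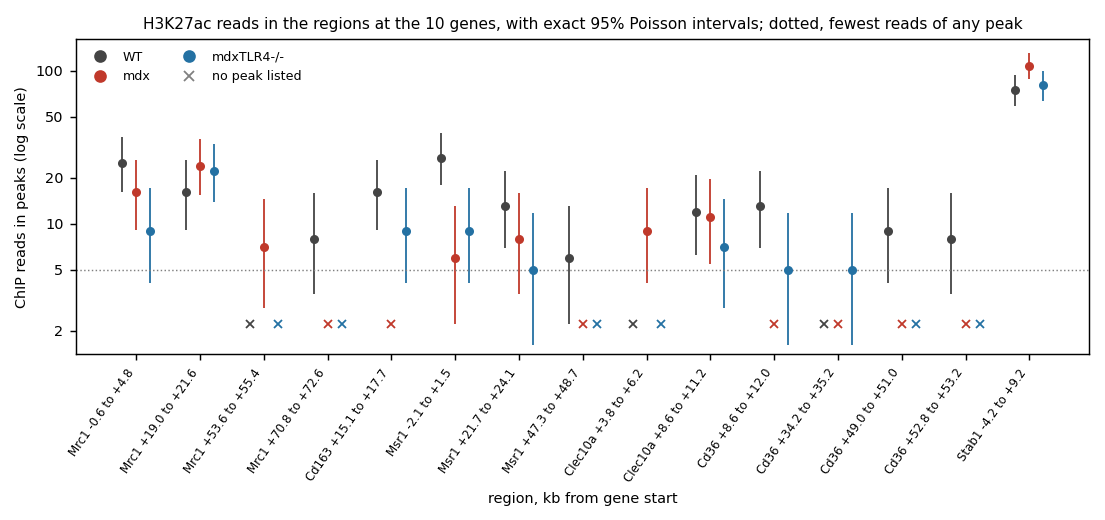
H3K27ac reads (log scale) in each region at the 10 genes, named by its distance from the gene start in kb, with exact 95% Poisson intervals; crosses mark lists with no peak and the dotted line the 5 reads of the smallest peak. Stab1 stands apart with 75 to 108 reads and all other regions hold 5 to 27; the 27 WT reads at the Msr1 start, in a longer peak, have the 1 interval that lies clear of those of the other genotypes.

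Chil3 and Retnla, which encode the secreted proteins Ym1, a chitinase-like lectin, and RELMα (Fizz1), had no peak of either mark in any list; 23.8% of protein-coding genes were without both marks. Chil3 is on the minus strand at chr3:106147554-106167564 (ENSMUSG00000040809.10; 11 exons). The H3K27me3 peak nearest to it was 439 kb away in WT, 47.0 kb away in mdx, over its relative Chil4, and 144 kb away in mdxTLR4-/- BMDM. In mdx a 7-read H3K27ac peak lay 4.75 kb past its end, outside the window. Retnla is on the plus strand at chr16:48842551-48844461 (ENSMUSG00000061100.4; 4 exons), and its nearest H3K27me3 peak was 671 kb away in mdx and mdxTLR4-/- and 1260 kb away in WT BMDM. The nearest H3K27ac peak held 7 reads, 11.0 kb upstream, in WT, and was 148 kb away in the other genotypes. Both genes, like Mrc1, respond to interleukin-4, which these cells had not been given. Mrc1 carried H3K27ac in every list. Whether the lack of interleukin-4 bears on the absence of peaks at Chil3 and Retnla was not tested.

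The sequences before the first exons of these unmarked genes (RefSeq, GRCm38.p6) are shown side by side: Retnla at chr16:48842359-48842550, plus strand, and Chil3 at chr3:106167565-106167814, minus strand. Capitals in Retnla mark, in order, the PU.1 core on the reverse strand (138 bp before the exon), a match to the STAT6 motif, TTC and GAA with 4 bases between them (first base 87 bp before the exon) and, 1 base further on and not overlapping it, the C/EBP motif TTGCNNAA (76 bp).
Retnla upstream: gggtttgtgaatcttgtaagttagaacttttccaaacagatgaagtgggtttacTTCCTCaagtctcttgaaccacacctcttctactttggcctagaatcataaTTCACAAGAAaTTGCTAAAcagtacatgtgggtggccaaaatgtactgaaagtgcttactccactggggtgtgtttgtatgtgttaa
Chil3 upstream: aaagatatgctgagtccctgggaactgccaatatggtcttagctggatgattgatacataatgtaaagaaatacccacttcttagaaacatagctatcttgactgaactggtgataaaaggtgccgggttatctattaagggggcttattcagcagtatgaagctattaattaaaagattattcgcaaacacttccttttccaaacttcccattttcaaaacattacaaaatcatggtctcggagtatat
Among the 8 of the 10 genes with an upstream sequence in the table, the STAT6 match was found in Retnla alone, against 5.85% of all upstream sequences. The C/EBP motif occurred in 9.56% of them, the AP-1 motif TGANTCA in 6.75% and TATAAA in 12.4%; all were searched on both strands. Chil3 held none of these letters in this window.

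Where a gene had peaks of a mark in 2 lists, the densities could be compared over the whole window, whether or not the peaks lay at the same sites. No ratio passed 1.5 times the all-gene median in either direction for mdx against WT or mdxTLR4-/- against mdx in H3K27ac, where 19.0% and 20.0% of all genes were above it and 18.5% and 19.5% below. For mdxTLR4-/- against WT, Cd163 was above at 1.69 (0.657 to 4.05; 19.0% of all genes) and Clec10a below at 0.550 (0.184 to 1.52; 18.6%), and both intervals included 1. Mrc1 was at 0.976, 1.24 and 1.21 for mdx against WT, mdxTLR4-/- against mdx and mdxTLR4-/- against WT, with the start site lower and the intronic site higher in value than in WT; scaled to reads in peaks, the last was 1.70 (1.05 to 2.72). In H3K27me3, Mgl2 was at 0.906 (0.621 to 1.29) and Clec10a at 0.843 (0.526 to 1.33) for mdxTLR4-/- against mdx. These ratios do not compare like sites. The Clec10a peaks did not overlap, and the Mgl2 ratio includes the gene-body peak found in mdx alone. At the site past the end of Mgl2, listed in both, the ratio was 1.16 (0.770 to 1.73). None of the 3 H3K27me3 genes passed 1.5 times in either direction, as few genes did (1.29% above and 1.52% below for mdx against WT, 2.48% and 1.73% for mdxTLR4-/- against mdx, 1.80% and 2.13% for mdxTLR4-/- against WT). The median ratios used were 1.21, 0.806 and 0.972 for H3K27me3 and 0.889, 0.970 and 0.867 for H3K27ac, in the same order.

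**Figure D4:**
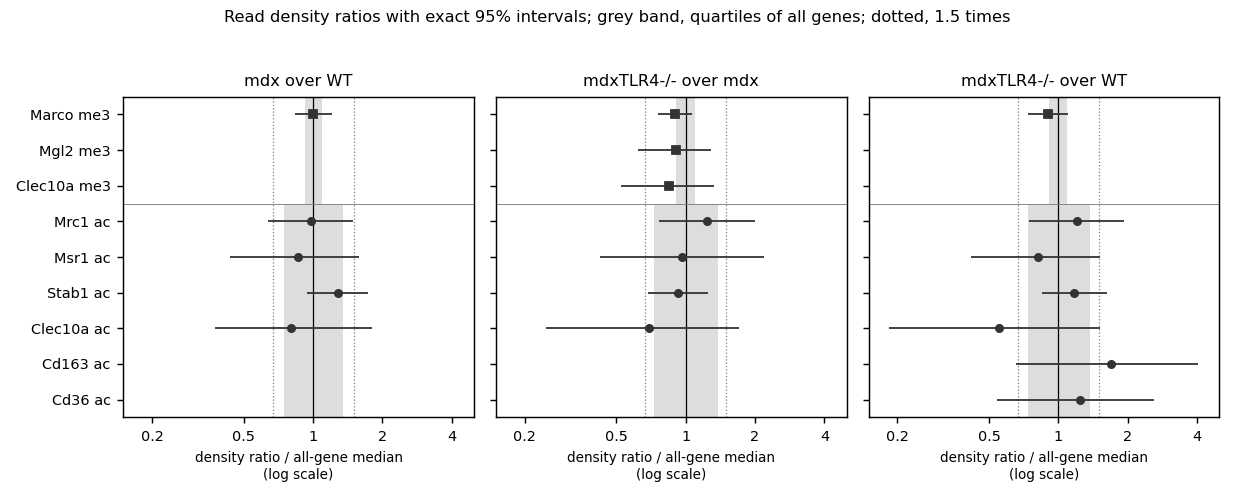
Ratio of read density between genotypes, divided by the median ratio of all genes (log scale), for each of the 10 genes with peaks in both lists, with exact 95% intervals; the grey band spans the quartiles of all genes and dotted lines mark 1.5 times in either direction. All intervals shown include 1; Cd163 (1.69) and Clec10a (0.550) in H3K27ac for mdxTLR4-/- against WT are the points beyond the dotted lines.

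Related genes were counted in the same way, beside a background of 4.82% of protein-coding genes that gained and 1.92% that lost H3K27me3 in mdx against WT, and 4.61% that gained and 9.94% that lost H3K27ac. Of 21 other genes of alternative activation, H3K27me3 was listed at 9 in WT, 10 in mdx BMDM and 10 in mdxTLR4-/-, and H3K27ac at 10, 9 and 8, with H3K27ac within 1 kb of the start at 4, 5 and 3. The 1 gain of H3K27me3 in mdx was at Chil4, a close relative of Chil3 (58 reads in mdx, no peak in the others). H3K27ac was gained in mdx at Ppargc1b (7 reads) and lost at Il13ra1, a subunit of the interleukin-13 receptor (15 reads in WT, 8 in mdxTLR4-/-), and at Mmp12, macrophage elastase (7 reads in WT). Of 25 other scavenger and lectin receptor genes found in the annotation, out of 26 listed, 10, 11 and 12 had H3K27me3 and 15, 13 and 13 had H3K27ac. H3K27me3 was gained in mdx at Cxcl16, a receptor for oxidised lipoprotein and phosphatidylserine (100 reads in mdx, 104 in mdxTLR4-/-), and at Axl, a receptor for dying cells (80 and 73 reads), both listed in mdxTLR4-/- as well, and lost at Lrp1 (1285 reads in WT, 1158 in mdxTLR4-/-). Reads are those of whole peaks that touch a window and may lie partly outside it. No H3K27me3 peak lay within 1 kb of the Lrp1 start in any list, whereas an H3K27ac peak did in every list. H3K27ac was gained in mdx at Scarf2 (7 reads) and lost at Stab2 (10 reads in WT, 5 in mdxTLR4-/-), Clec4e (7 and 7 reads) and Megf10 (11 reads in WT).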

How the data were processed

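BMDM chromatin was digested with micrococcal nuclease and immunoprecipitated without crosslinking. Per the labels and the study's methods, the authors trimmed reads with cutadapt (1.15), aligned them to mm10 with Bowtie2 (2.3.4), merged replicates where there were 2 and called peaks against input with SICER2 (window 200 bp, gap 600 bp, FDR 0.01). The deposited files hold, for each peak, its position and the count of ChIP reads, not scaled for depth. Titles of the H3K27me3 samples give the third genotype as mTLR4, read here as mdxTLR4-/-. The labels number replicates without saying whether they were separate mice.

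Positions were written counting from 1. A gene was marked where a peak touched its window by at least 1 bp. Density was reads per kb over all peaks touching the window; ratios were divided by the median ratio over all genes with peaks in both lists, and a gene was called past 1.5 times this median in either direction. Intervals on counts (Poisson) and ratios (Clopper-Pearson) were exact, at 95%. Exons are those of the protein-coding transcript with most exons. The 10 genes were all named, and of the gene lists those differing between WT and mdx. Scripts (Python 3.11.15, numpy 2.4.6, pandas 2.3.3, scipy 1.17.1, matplotlib 3.10.9) were tested on simulated peaks. The genes, lists and alternatives were chosen with earlier results of these data known.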

Additional observations from a re-analysis of the deposited data

How the results depend on the processing

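No paired analysis was possible because the files hold 1 list per mark and genotype, with no values per library, and for the same reason no replicate could be left out. Of 104 counts of the 10 genes recomputed under alternatives, 81 stayed within 1.5 times and 23 moved. Of 76 single-gene ratios, 70 stayed within the interval of the reported value and 6 did not. Counts were compared by size, even where the genes counted changed. The totals include outcomes that could hardly move: every count of H3K27me3 ratios past 1.5 times stayed at 0, and 19 of the 76 ratios only took the median of protein-coding genes. None of the ratios that crossed 1 was called in the reported values, but 14 of the 76 crossed it: 9 of 19 with scaling to reads in peaks (such as Msr1 H3K27ac for mdx against WT, from 0.856 to 1.09) and 5 of 19 with the peak of largest overlap (such as Mrc1 H3K27ac for mdxTLR4-/- against WT, from 1.21 to 0.478, and against mdx, from 1.24 to 0.870, and Stab1 for mdxTLR4-/- against mdx, from 0.924 to 1.86). The cause was not tested where none is given.

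For H3K27me3, the count in mdxTLR4-/- BMDM fell to 1 gene (Marco), and that with both marks to 0, with peaks of at least 1.5 times the 1st percentile of density, with equal numbers of peaks per list, and with at least 10% of the window covered; the last also left 0 genes with both marks in mdx and 1 (Mgl2) whose H3K27me3 differed between genotypes. With H3K27ac sought in the 5 kb upstream alone, the stretch the study used in its gene-based analysis of this mark, 3 genes were marked in WT (Mrc1, Msr1, Stab1). In mdx 2 were marked (Mrc1, Stab1), and in mdxTLR4-/- BMDM 2 (Msr1, Stab1). The genes that differed between genotypes were then Mrc1 and Msr1, and Cd163 and Cd36 were marked in no list. With at least 10 reads per peak, 2 (Mrc1, Stab1) were marked in mdxTLR4-/- BMDM, 4 (Cd163, Msr1, Clec10a, Cd36) differed between genotypes, and 1 (Stab1) was marked at its start in mdx and 1 in mdxTLR4-/- BMDM. At the start of any protein-coding transcript, 5 were marked in WT, adding Clec10a and Cd36.

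Counts of H3K27ac ratios past 1.5 times depended most on the method. For mdx against WT 1 gene passed with scaling to reads in peaks (Stab1) and 2 with the peak of largest overlap in place of the window (Mrc1, Clec10a); for mdxTLR4-/- against mdx 1 passed with the latter (Stab1). For mdxTLR4-/- against WT 1 passed without scaling, 4 with scaling to reads in peaks, 5 with the largest peak and 0 at a fold of 2. The H3K27ac lists, with medians of 8 to 10 reads per peak, limit every comparison of that mark.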

Other observations

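Of the 21 other genes of alternative activation, 6 had H3K27ac in all 3 lists and 9 in none. The genes named next were chosen after their values were seen and do not stand for the list, in which Myc had no H3K27ac peak and Klf4 had 8 and 11 reads in WT and mdx and no peak in mdxTLR4-/- BMDM. Il4ra, the interleukin-4 receptor alpha chain, had 42, 38 and 20 H3K27ac reads in its window in WT, mdx and mdxTLR4-/- BMDM, and Stat6 had 40, 21 and 31, each with a peak within 1 kb of the start in every list and no H3K27me3 peak in any. Irf4, a transcription factor of the M2 programme, had H3K27me3 in all 3 lists, with 146, 339 and 216 reads, and an H3K27ac peak of 5 reads in mdxTLR4-/- BMDM alone. Arg1, which encodes arginase-1, had 18, 14 and 8 H3K27ac reads, with a peak within 1 kb of its start in WT alone. These are read counts without scaling for depth, and the differences between genotypes were not tested.

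Outside the windows, mdx BMDM had an H3K27me3 peak of 38 reads 10.9 kb past the end of Mrc1, where the nearest peaks of WT and mdxTLR4-/- BMDM were 272 kb and 270 kb away, at Cacnb2. At Cd36 the nearest H3K27me3 peak was 12.5 kb past the gene end in mdx (41 reads), and 38.4 kb upstream in mdxTLR4-/- and 170 kb upstream in WT BMDM. The distances in WT, mdx and mdxTLR4-/- were close to each other at Cd163 (95.3, 101 and 96.3 kb), Msr1 (641, 640 and 642 kb) and Stab1 (44.0, 44.4 and 48.2 kb). Those of Chil3 and Retnla are given above. The H3K27me3 list of mdx held 41780 peaks, against 28143 in WT and 36488 in mdxTLR4-/-, and no background of such distances was computed.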
